A study of Homo sapiens with 6 samples.

Results

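Respiratory chain genes were examined in RNA sequencing of the human cell line LX-2, which derives from hepatic stellate cells, known for laying down scar matrix in injured liver. Genes were taken by symbol from the deposited table: nuclear genes for subunits of complexes I to IV, and the protein-coding genes of mitochondrial DNA. Assembly factors and read-through symbols were left out. This gave 79 of the 24789 genes and loci with values, of which 66 are nuclear (36 for complex I, 4 for complex II, 9 for complex III and 17 for complex IV) and 13 are mitochondrial. NDUFA4, named for complex I but now known as a subunit of complex IV, was counted with complex IV. MT-ATP6 and MT-ATP8 belong to ATP synthase and came in with the other mitochondrial genes. There were 2 groups of 3 libraries. In the first, cells labelled wild type had received a scrambled siRNA, and in the second, labelled AEBP1 knockdown, an siRNA against AEBP1, which encodes a collagen-binding matrix protein. Each siRNA was transfected with lipid at 50 nM, 48 hours before harvest. The comparison asks what the AEBP1 siRNA changes. LX-2 is a single immortalised line. No source used here says that a library had its own transfection, and p-values therefore rest on a spread among libraries that may be technical.

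The respiratory chain passes electrons from fuel to oxygen in the inner mitochondrial membrane. Complex I takes them from NADH and complex II from succinate, both hand them to ubiquinone, complex III passes them on to cytochrome c, and complex IV gives them to oxygen. Complexes I, III and IV pump protons, and the gradient drives ATP synthase. These pumping complexes mix subunits made from nuclear genes with a few made from mitochondrial DNA, whereas complex II is encoded in the nucleus alone. Activation of stellate cells is known to raise their energy demand. In bulk RNA such as this, fewer cells of a type and less RNA per cell cannot be told apart.

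Total counts lay between 34433510 and 49432960 per library. AEBP1 (ENSG00000106624) went against the labels in 2 libraries. It was at 53.6, 48.7 and 25.1 CPM (counts scaled to library size, as defined under processing) in scrambled 1, 2 and 3, and at 29.7, 27.7 and 48.3 CPM in AEBP1 siRNA 1, 2 and 3. The library labelled scrambled 3 was thus low and the library labelled AEBP1 siRNA 3 high, and every direction below rests on the labels. The estimate for AEBP1 was a log2 fold change of -0.27, with an SE of 0.305 and an edgeR adjusted p of 0.991. Of 12 stellate cell markers 10 were expressed enough to be tested, with COL1A1 at 1413 to 1617 CPM, while LRAT was at 0 counts in all 6 libraries and DES in 4 of them. Of the markers of other liver cells, 1 of 8 for hepatocytes, 4 of 7 for epithelium, 2 of 7 for leukocytes and 4 of 7 for endothelium could be tested. ALB, EPCAM, PTPRC and PECAM1 were at most 0.268 CPM in any library. Other markers of these lists were expressed. The highest mean of a tested marker was 3.04 FPKM for hepatocytes, 95.5 for epithelium, 9.93 for leukocytes and 10.0 for endothelium. Summed CPM of each list lay between 4.97 and 9.23 in the scrambled against 5.77 and 7.75 in the AEBP1 siRNA libraries for hepatocytes, 18.8 and 23.6 against 21.7 and 25.6 for leukocytes, and 64.8 and 69.2 against 56.6 and 71.3 for endothelium. The epithelial sum was 215 to 238 CPM in the scrambled libraries, 222 CPM in AEBP1 siRNA 2 and 3 and 291 CPM in AEBP1 siRNA 1, the library in which nuclear subunits were highest, and its part in the results was not tested.

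No respiratory chain gene differed between the labelled groups by the test. Of the 79, 75 had enough counts to be tested, and 0 had an adjusted p under 0.05 (edgeR quasi-likelihood test, adjusted over all 16250 genes tested), where the background was 0.00615% of genes. At an unadjusted p under 0.05 there were also 0, against a background of 1.33%, and DESeq2 and limma-voom likewise called 0. The smallest unadjusted p was 0.118. Estimates leaned towards the libraries labelled AEBP1 siRNA: 65 of the 75 were above 0, where the background was 49.4%. The median log2 fold change was 0.12 over 62 nuclear genes and 0.094 over 13 mitochondrial genes, against -0.0023 over all genes tested. The widest 95% intervals were those of the barely expressed COX6B2, from -0.71 to 1.25, and COX7A1, from -0.90 to 0.48. The plot of estimates by complex shows each gene with its interval.

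**Figure D1:**
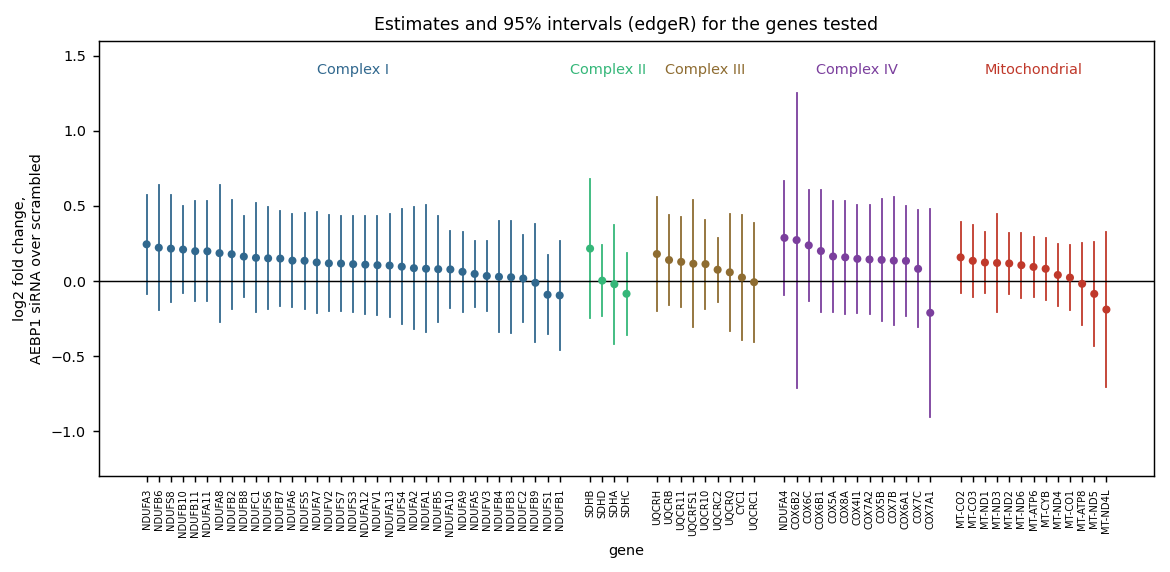
Log2 fold change of AEBP1 siRNA over scrambled (vertical axis) for the genes tested, with 1 of the 75 not shown, ordered within each complex. Points are edgeR estimates and lines their 95% intervals, with 3 libraries per group. Every interval shown includes 0, and most estimates lie above it.

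The lean of the nuclear genes rested on AEBP1 siRNA 1. That library was the highest of the 6 for 52 of the 62 nuclear genes tested (83.9%), where the background over all genes was 32.2%. Relative to the mean of the 6 libraries, the median nuclear gene was at a log2 deviation of 0.32 in AEBP1 siRNA 1. It was at 0.061, -0.098 and -0.13 in scrambled 1, 2 and 3, and at -0.18 and -0.0084 in AEBP1 siRNA 2 and 3. AEBP1 siRNA 2 was in turn the lowest of the 6 for 29 nuclear genes (46.8%), against 14.9% of all genes. Libraries with the same label thus stood at both ends for part of the nuclear subunits. Without AEBP1 siRNA 1, only 16 of the 62 estimates were above 0 and the median was -0.029. Without AEBP1 siRNA 2 the median was 0.24, and without the replicate 3 libraries, whose AEBP1 went against the labels, it was 0.11.

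**Figure D2:**
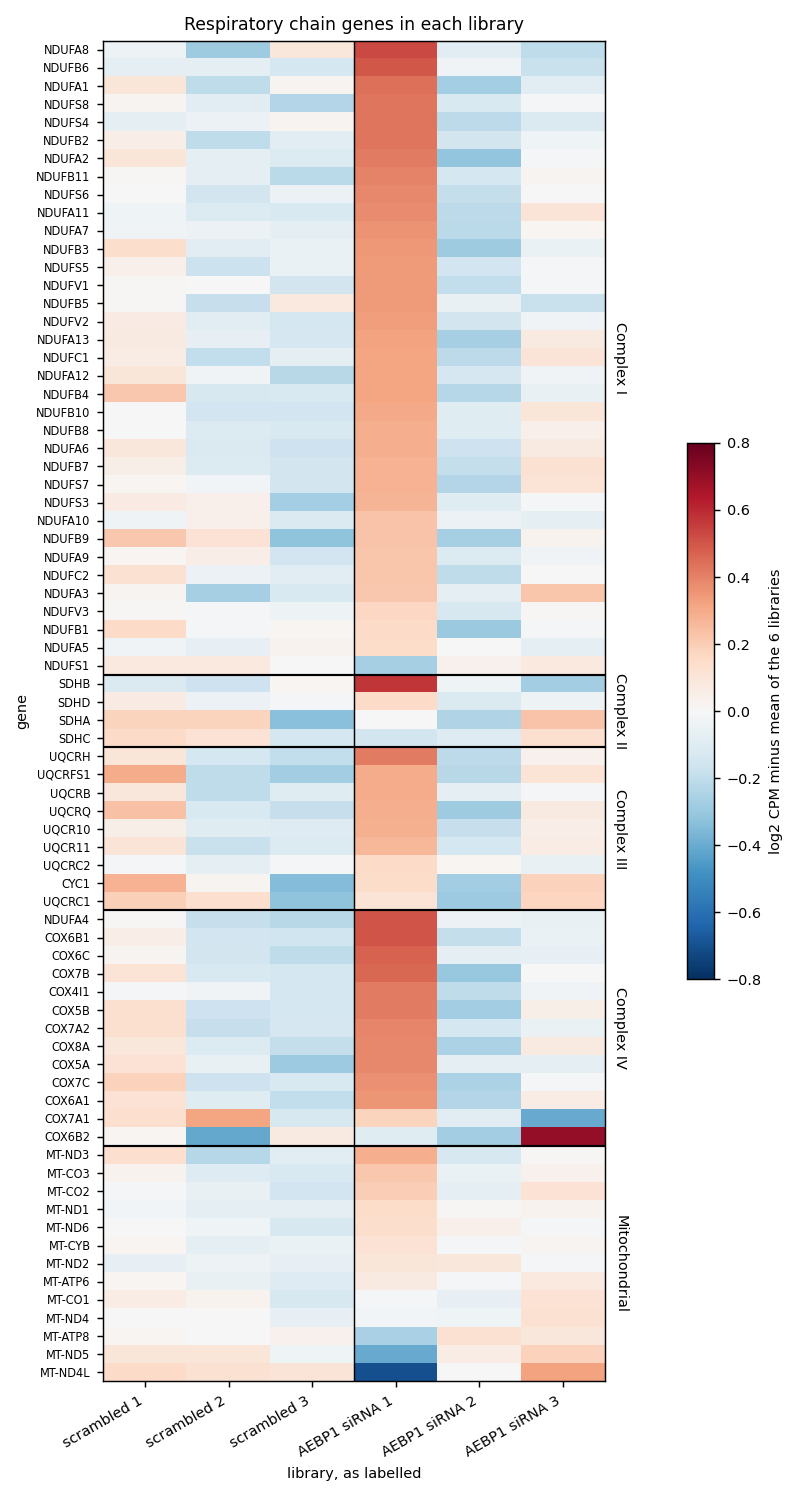
Log2 CPM minus the mean of the 6 libraries (colour) for the genes tested, with 1 of the 75 not shown (rows, by complex) in each library (columns, as labelled). AEBP1 siRNA 1 is the highest library for 52 of 62 nuclear genes, and MT-ND4L, MT-ND5 and MT-ATP8 are lowest there.

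Complex I has a peripheral arm that carries the flavin and the iron-sulfur clusters and a membrane arm that pumps protons. All 36 of its nuclear genes were tested, 33 had estimates above 0, and the median log2 fold change was 0.11. Per length, their levels ran from 8.09 FPKM (NDUFA9) to 191 FPKM (NDUFA11), with a median of 51.4. NDUFA11, an accessory subunit of the membrane arm, was at 137, 130 and 129 CPM in the scrambled libraries and at 182, 121 and 151 CPM in AEBP1 siRNA 1, 2 and 3. The AEBP1 siRNA libraries thus lay on both sides of all scrambled ones. NDUFS5, a small accessory subunit on the intermembrane side and second by FPKM at 175, was at 109, 94.2 and 102 CPM against 134, 95.5 and 105 CPM. Only AEBP1 siRNA 1 lay outside its scrambled range.

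The complex I genes with the smallest p were accessory subunits too. NDUFA3 was at 18.0, 14.7 and 16.2 CPM in the scrambled libraries and at 20.6, 16.7 and 20.7 CPM in the AEBP1 siRNA libraries. Only AEBP1 siRNA 2 fell within the scrambled range, and the estimate was 0.24 on the log2 scale (SE 0.143, edgeR adjusted p = 0.991, unadjusted 0.124). NDUFB10 was at 32.6, 29.3 and 29.3 CPM against 40.2, 30.4 and 34.7 CPM, again with AEBP1 siRNA 2 inside the scrambled range. Its log2 fold change was 0.21 (SE 0.126, unadjusted p = 0.133).

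The catalytic core of complex I was not uniform. NDUFS8, which holds iron-sulfur clusters on the way to ubiquinone, was at 132, 122 and 110 CPM in the scrambled libraries and at 175, 119 and 129 CPM in the AEBP1 siRNA libraries. NDUFV1, which binds the flavin that accepts electrons from NADH, was at 157, 157 and 141 CPM against 198, 137 and 155 CPM. In both, AEBP1 siRNA 1 was the highest library. NDUFS1, the largest iron-sulfur subunit, went the other way in AEBP1 siRNA 1, with 157 CPM there against 188.1 to 199.5 CPM in the other libraries. It was 1 of 2 nuclear genes, with SDHC, that were lowest in that library.

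Complex II, which is also the succinate dehydrogenase of the citric acid cycle, was split among its own subunits. SDHA, the flavoprotein that oxidises succinate, was at 314, 313 and 220 CPM in scrambled 1, 2 and 3 and at 276, 234 and 324 CPM in AEBP1 siRNA 1, 2 and 3. SDHB, the iron-sulfur subunit bound to it, was at 44.8, 43.2 and 49.1 CPM and at 72.1, 47.4 and 39.9 CPM. SDHA was highest where SDHB was lowest, in AEBP1 siRNA 3. The CPM ratio of SDHA to SDHB, looked at after these values were seen, was 7.0, 7.25 and 4.48 in the scrambled libraries and 3.83, 4.94 and 8.13 in the AEBP1 siRNA libraries. It was high in scrambled 1, scrambled 2 and AEBP1 siRNA 3 and low in the other libraries. The labelled groups overlapped for both genes.

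The membrane anchors of complex II differed from each other as well. SDHC was at 110, 107 and 89.8 CPM in the scrambled libraries and at 89.2, 92.1 and 108 CPM in the AEBP1 siRNA libraries. Scrambled 1, scrambled 2 and AEBP1 siRNA 3 were its high libraries, as for SDHA. SDHD was at 114, 106 and 108 CPM against 121, 101 and 106 CPM, the narrowest range of the 4 genes. The log2 fold changes were -0.021 for SDHA (95% interval -0.42 to 0.37), 0.22 for SDHB (-0.25 to 0.68), -0.085 for SDHC and 0.0026 for SDHD.

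Complex III passes electrons through the Rieske iron-sulfur protein and cytochrome c1, held on a pair of core proteins. Of its 9 genes, 8 had estimates above 0 and the median was 0.11. UQCRC1, a core protein, was at 274, 264 and 192 CPM in scrambled 1, 2 and 3 and at 259, 196 and 270 CPM in AEBP1 siRNA 1, 2 and 3. CYC1, cytochrome c1 itself, was at 107, 89.2 and 68.9 CPM and at 97.0, 72.3 and 99.6 CPM. For both, scrambled 3 and AEBP1 siRNA 2 were the low libraries. UQCRC2, the other core protein, varied little, from 68.1 to 80.1 CPM. The ratio of UQCRC1 to UQCRC2 was accordingly 3.84, 3.87 and 2.69 in the scrambled libraries and 3.23, 2.70 and 3.91 in the AEBP1 siRNA libraries. UQCRC1 and CYC1 were singled out after their values were seen, as were NDUFS1, NDUFS8, NDUFV1 and UQCRC2.

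**Figure D3:**
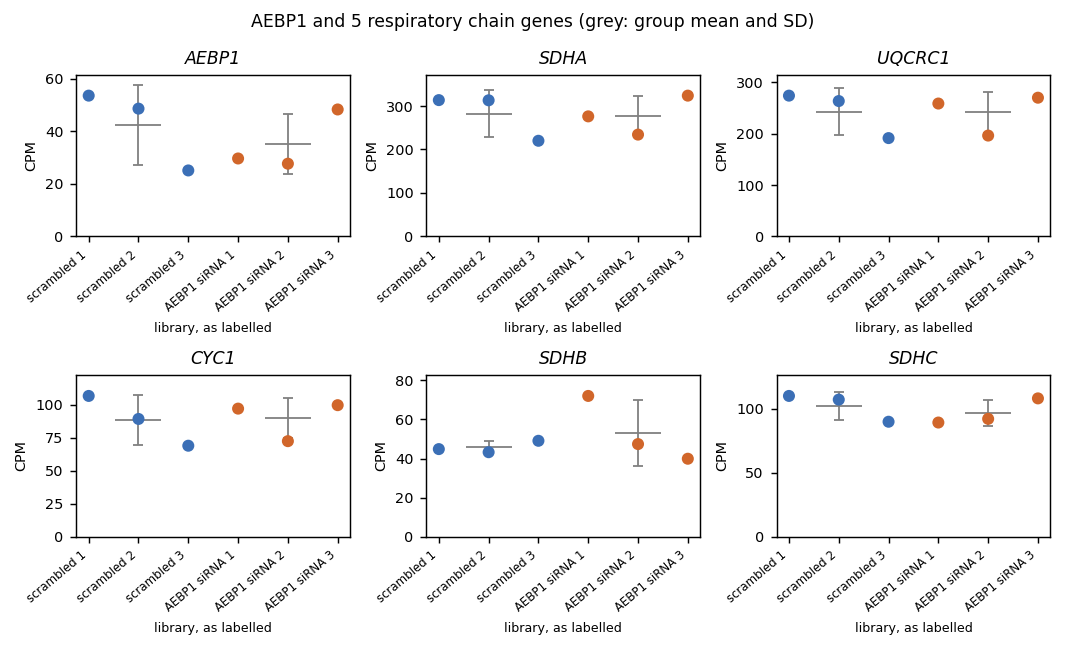
CPM (vertical axis, from 0) of AEBP1 and 5 respiratory chain genes in each library, blue for scrambled and orange for AEBP1 siRNA, with grey lines at the group mean and its SD (n = 3). SDHA, UQCRC1 and CYC1 are lowest in scrambled 3, where AEBP1 is also lowest, while SDHB is lowest in AEBP1 siRNA 3 and SDHC in AEBP1 siRNA 1.

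UQCRC1 was the single member that passed the threshold in any fit. With replicate 3 of both groups and AEBP1 siRNA 1 left out, its estimate was -0.45 on the log2 scale (SE 0.0918, edgeR adjusted p = 0.0449), where 1.46% of all genes were called, and 0.809% were called lower. This fit sets AEBP1 siRNA 2 alone against scrambled 1 and 2, and the lone library is assumed to vary like the others. The replicate 3 libraries, left out here, were those whose AEBP1 went against the labels. AEBP1 siRNA 2 was the lowest of the 6 libraries for 29 of the 62 nuclear genes. Directions in this fit thus follow in part from the choice of libraries. There, 15 of the 75 respiratory chain genes had an unadjusted p under 0.05, against a background of 12.2%, and 53 of the 62 nuclear estimates were below 0. With all 6 libraries the UQCRC1 log2 fold change was -0.0078 (95% interval -0.40 to 0.39).

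In the small subunits of complex III, AEBP1 siRNA 1 was again the highest library. UQCRH, the hinge protein that helps cytochrome c dock, was at 107, 91.0 and 87.8 CPM in the scrambled libraries and at 134, 87.0 and 103 CPM in the AEBP1 siRNA libraries. UQCRQ was at 131, 102 and 97.6 CPM against 136, 91.1 and 117 CPM. UQCRB was at 110, 89.8 and 96.6 CPM against 127, 98.0 and 102 CPM, and its log2 fold change of 0.14 had an unadjusted p of 0.313. The groups overlapped in each. UQCRHL, a near copy of UQCRH outside the set, was at 2.83 to 5.03 CPM, and no source used here says how reads were shared between them.

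Promoters of genes that differed in layout within complexes II and III are shown here with the letters of NRF1, a regulator of nuclear respiratory genes, marked among others. The windows are the 150 bases before the RefSeq start (GRCh38.p14, a different build from the hg19 of the counts), 5′ to 3′ on the gene's strand. Capitals mark exact matches, on either strand, to letters of NRF1 (GCGCANGCGC), ETS factors such as GABPA (CCGGAAG), SP1 (GGGCGG) or YY1 (AAGATGG), which were searched separately and may overlap.
SDHA (chr5:218170-218319, plus strand): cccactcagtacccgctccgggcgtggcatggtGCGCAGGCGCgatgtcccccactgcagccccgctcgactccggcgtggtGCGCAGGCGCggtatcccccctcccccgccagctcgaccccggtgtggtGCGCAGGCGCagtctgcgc
UQCRC1 (chr3:48609647-48609796, minus strand): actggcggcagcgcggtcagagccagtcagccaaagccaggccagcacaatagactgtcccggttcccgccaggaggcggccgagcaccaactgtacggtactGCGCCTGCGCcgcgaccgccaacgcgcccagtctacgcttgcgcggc
SDHB (chr1:17054033-17054182, minus strand): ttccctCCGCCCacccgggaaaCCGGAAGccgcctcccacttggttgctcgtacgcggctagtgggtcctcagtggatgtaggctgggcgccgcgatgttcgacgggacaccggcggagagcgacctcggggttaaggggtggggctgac

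SDHA holds the NRF1 letters 3 times in that window, UQCRC1 holds them in 1 place, and SDHB has an ETS and an SP1 match there. In windows of 300 bases SDHD, UQCR10, UQCR11 and UQCRFS1 also held NRF1 letters. Of these, SDHD, UQCR10 and UQCR11 were highest in AEBP1 siRNA 1, as SDHB was. Promoters matched by symbol for 54 of the 66 nuclear genes, in windows of 300 bases (250 before the start and 50 after). The NRF1 letters were in 13 of the 54 (24.1%), against 6.28% of all 27305 promoters of that length. By complex they were in 6 of 31 for complex I, 2 of 3 for complex II, 4 of 7 for complex III and 1 of 13 for complex IV. The match of complex IV was COX8C, which had 0 counts in all 6 libraries. ETS letters were in 27.8% of the nuclear members and 10.7% of all promoters, YY1 letters in 20.4% and 6.06%, and SP1 letters in 57.4% and 44.6%. A match is a description of the letters and not evidence of binding.

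Complex IV, cytochrome c oxidase, holds the most abundant nuclear subunits per length. COX6A1 had the highest mean, 325 FPKM ± 52.3 (SD over 6 libraries), and COX8A followed at 319 FPKM ± 54.9, a difference smaller than their spread. COX6A1 was at 224, 194 and 180 CPM in the scrambled libraries and at 265, 176 and 215 CPM in the AEBP1 siRNA libraries. COX8A, a small membrane subunit, was at 192, 167 and 158 CPM against 236, 151 and 190 CPM. For both, the scrambled values lay between AEBP1 siRNA 2 and AEBP1 siRNA 1.

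NDUFA4 and COX6C had the smallest p of complex IV. NDUFA4 was at 53.2, 46.4 and 45.2 CPM in the scrambled libraries and at 75, 51.1 and 50.8 CPM in the AEBP1 siRNA libraries. Its log2 fold change of 0.29 (SE 0.165, edgeR adjusted p = 0.991, unadjusted 0.118) was the largest of all nuclear subunits. COX6C was at 52.1, 46.5 and 44.7 CPM against 71.1, 48.7 and 49.1 CPM, with a log2 fold change of 0.24. In both genes AEBP1 siRNA 2 and 3 lay within the scrambled range and AEBP1 siRNA 1 stood above it. With limma on log2(FPKM + 1) the estimate for COX6C was -0.011, and the cause of the change in sign was not tested.

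Several complex IV subunits exist in forms used by different tissues, and LX-2 used the widely expressed form of each. COX4I1 was at 213 FPKM, while COX4I2, the form known from lung, had 0 counts in all 6 libraries, which against a floor of 3 counts per library puts COX4I1 counts at least 1874-fold higher in every library. The heart and muscle form COX6A2 also had 0 counts, with COX6A1 at least 2208-fold higher. COX7B2 and COX8C, known from testis, had 0 counts as well, with COX7B and COX8A at least 1012-fold and 1894-fold higher. COX7A1, the muscle partner of COX7A2, was detected at 1.44 FPKM (38 to 75 counts per library), and COX7A2 was 76.8 to 128 times higher per length. COX6B2, the testis form, was at 0.296 FPKM (20 to 44 counts), and COX6B1 was 286 to 504 times higher. Differences between the labelled groups were within the spread for both of these minor forms, at log2 fold changes of -0.21 for COX7A1 and 0.27 for COX6B2.

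Close relatives outside the set behaved in distinct ways. NDUFA4L2, the hypoxia-linked relative of NDUFA4, was at 3.35 to 6.24 CPM, and NDUFA4 was 5.99 to 7.90 times higher per length. COX7A2L, which helps join complexes III and IV into supercomplexes, was at 142, 132 and 80.5 CPM in scrambled 1, 2 and 3 and at 102, 82.6 and 135 CPM in AEBP1 siRNA 1, 2 and 3, the layout of SDHA. NDUFAB1, the acyl carrier protein of complex I, was at 29.5 to 31 CPM in 5 libraries and at 38.6 CPM in AEBP1 siRNA 1. NDUFC2-KCTD14, a read-through of NDUFC2 and its neighbour, was at 4.11, 3.03 and 3.76 CPM in the scrambled libraries and at 7.11, 4.31 and 6.56 CPM in the AEBP1 siRNA libraries. The groups did not overlap, and the estimate was 0.72 on the log2 scale (SE 0.233, edgeR adjusted p = 0.991, unadjusted 0.0144). It was 1 of 5 relatives looked at, and the only 1 without overlap or with an unadjusted p under 0.05. Over all genes these shares were 5.93% and 1.33%. The rule for naming genes had not named it. NDUFC2 itself had 4195 to 6128 counts per library and a log2 fold change of 0.017, and reads could be shared between the pair.

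The 13 mitochondrial genes were far more abundant per length than the nuclear ones. Their means ran from 379 FPKM (MT-ND3) to 2452 FPKM (MT-CO1), so the lowest stood above COX6A1, the highest nuclear subunit. The medians were 1069 FPKM for mitochondrial and 62.1 FPKM for tested nuclear genes. MT-CO1 and MT-CO2 encode the metal-binding core of cytochrome c oxidase. MT-CO1 was at 4428, 4337 and 3891 CPM in the scrambled libraries and at 4210, 4054 and 4594 CPM in the AEBP1 siRNA libraries. MT-CO2 was at 1149, 1112 and 1042 CPM against 1329, 1099 and 1255 CPM, with a log2 fold change of 0.16 (SE 0.103, unadjusted p = 0.166). The groups overlapped for both.

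For 2 mitochondrial genes the labelled groups did not overlap. MT-ND1, a membrane subunit of complex I next to the ubiquinone site, was at 551, 530 and 530 CPM in the scrambled libraries and at 619, 565 and 571 CPM in the AEBP1 siRNA libraries. MT-ND2, one of its proton-pumping subunits, was at 621, 631 and 620 CPM against 696, 691 and 644 CPM. The log2 fold changes were 0.12 for both (SE 0.0897 and 0.0872, edgeR adjusted p = 0.991). These were 2 of the 13 mitochondrial genes (15.4%), both higher, against 0 of the 62 nuclear genes and 2.67% of all 75. The background of groups that do not overlap was 5.93% (3.03% higher and 2.9% lower). Over all 13, estimates ran from -0.19 (MT-ND4L) to 0.16 (MT-CO2), and 10 were above 0. MT-ND3, MT-CYB, MT-ATP6, MT-ND6 and MT-ND4 had log2 fold changes of 0.12, 0.081, 0.094, 0.11 and 0.040, and MT-CO1 of 0.023.

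MT-ND4L, MT-ND5 and MT-ATP8 were low in AEBP1 siRNA 1 while their neighbours were not. MT-ND4L was at 421, 412 and 406 CPM in the scrambled libraries, at 379 and 474 CPM in AEBP1 siRNA 2 and 3, and at 233 CPM in AEBP1 siRNA 1. MT-ND5 was at 877 to 1020 CPM in 5 libraries and at 680 CPM in AEBP1 siRNA 1. MT-ATP8 was at 308 to 336 CPM in 5 libraries and at 258 CPM in that one. MT-ND2, MT-CO2, MT-CO3, MT-ND3, MT-ND1, MT-ND6 and MT-CYB were at their highest in the same library. The mitochondrial genes thus did not shift as a block there. These genes were singled out after their values were seen.

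MT-ND4L and MT-ND4 are read from a shared transcript with overlapping reading frames, as are MT-ATP8 and MT-ATP6. Per length the means within a pair were similar, at 1159 and 1069 FPKM in the first and 1332 and 1217 FPKM in the second. The overlaps are shown here because the count ratio within each pair was low in AEBP1 siRNA 1. The letters are from GENCODE (GRCh38), 5′ to 3′, with the shared bases in capitals.
End of MT-ND4L (chrM:10707-10766): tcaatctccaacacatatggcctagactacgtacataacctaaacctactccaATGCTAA
Start of MT-ND4 (chrM:10760-10819): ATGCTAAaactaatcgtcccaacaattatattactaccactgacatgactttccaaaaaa
End of MT-ATP8 (chrM:8513-8572): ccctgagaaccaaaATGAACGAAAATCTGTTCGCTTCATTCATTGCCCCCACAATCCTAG
Start of MT-ATP6 (chrM:8527-8586): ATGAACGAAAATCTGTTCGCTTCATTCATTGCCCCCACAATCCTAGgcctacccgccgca

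The frames share 7 bases in the first pair and 46 in the second, and in each the shorter gene (297 and 207 bases) comes first on the transcript. No source used here says how reads in shared bases were assigned. The CPM ratio of MT-ND4L to MT-ND4 was 0.253, 0.249 and 0.256 in the scrambled libraries, 0.235 and 0.264 in AEBP1 siRNA 2 and 3, and 0.143 in AEBP1 siRNA 1. That of MT-ATP8 to MT-ATP6 was 0.331 to 0.365 in 5 libraries and 0.264 in AEBP1 siRNA 1. MT-ND4 itself was at 1627 CPM in AEBP1 siRNA 1, within the range of 1583 to 1798 CPM of the other libraries, so the low ratio there came with a low count of the shorter gene. MT-ND6 lies on the opposite strand, and since the strand setting is not given, its reads cannot be told from antisense reads.

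**Figure D4:**
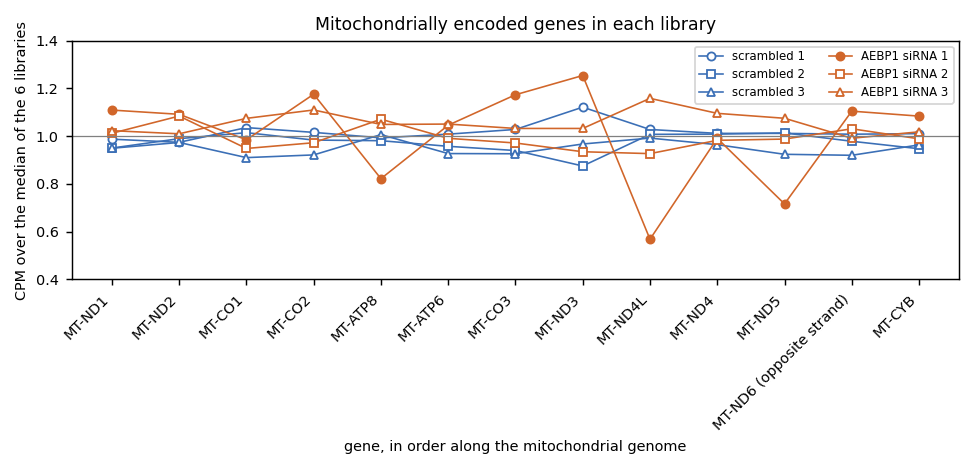
CPM of each mitochondrial gene divided by its median over the 6 libraries (vertical axis, starting at 0.4), with genes in order along the mitochondrial genome; lines join the points of 1 library, and the filled circles are AEBP1 siRNA 1. That library is lowest at MT-ATP8, MT-ND4L and MT-ND5, and highest at MT-ND1, MT-ND2, MT-CO2, MT-CO3, MT-ND3, MT-ND6 and MT-CYB.

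Nuclear and mitochondrial genes were then compared as sums within each library, with no test since the genes were chosen as a set. The 66 nuclear genes summed to 5699, 5182 and 4899 CPM in the scrambled libraries and to 6595, 4801 and 5493 CPM in AEBP1 siRNA 1, 2 and 3. The 13 mitochondrial genes summed to 13106, 12737 and 12016 CPM and to 12924, 12575 and 13719 CPM. The nuclear sum was thus widest in the AEBP1 siRNA group (5630 CPM ± 905, SD, n = 3, against 5260 CPM ± 406), while the mitochondrial sums were close (13073 CPM ± 586 against 12620 CPM ± 554). The ratio of mitochondrial to nuclear sums was 2.30, 2.46 and 2.45 in the scrambled libraries, 2.62 and 2.5 in AEBP1 siRNA 2 and 3, and 1.96 in AEBP1 siRNA 1. On the log2 scale the group means differed by -0.038, and without AEBP1 siRNA 1 by 0.090, a change of sign. With replicate 3 of both groups left out the difference was -0.070.

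**Figure D5:**
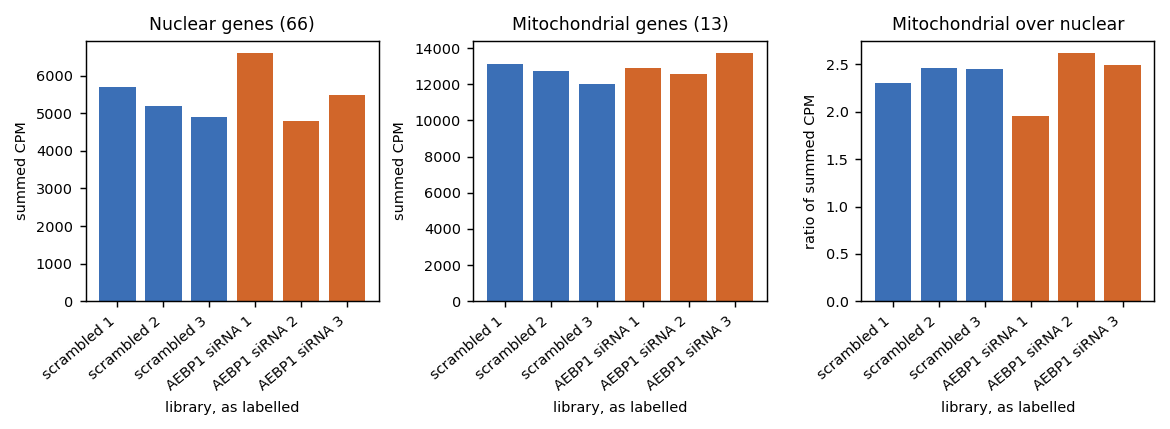
Summed CPM of the 66 nuclear genes (left), of the 13 mitochondrial genes (middle) and the ratio of the sums (right) in each library, blue for scrambled and orange for AEBP1 siRNA, 1 bar per library from 0. The nuclear sum is highest and the ratio lowest in AEBP1 siRNA 1, at 6595 CPM and 1.96.

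Most nuclear subunits are small proteins with short mRNAs, and AEBP1 siRNA 1 was high for short transcripts in general. The median transcript length (GENCODE release 29, median over protein-coding transcripts of a gene) was 702.5 bases for the 62 nuclear genes tested, 784 for the mitochondrial genes and 1858 for all 13862 genes with a length. Of the 62, 49 were in the shortest of 4 bins of near equal size, that is up to 1045.5 bases. In that bin the median log2 deviation in AEBP1 siRNA 1 was 0.15 over all 3466 genes and 0.34 over the 49 nuclear members, and 50.7% of all its genes were highest in that library. In the longest bin the median in AEBP1 siRNA 1 was -0.21 over all genes and 0.23 over the 2 nuclear members. In the third bin it was 0.0063 over all genes and 0.23 over the 6 nuclear members. In the second bin the 2 medians were close, at 0.13 over all genes and 0.15 over the 5 nuclear members. Among short mitochondrial genes, MT-ATP8 (207 bases) and MT-ND4L (297 bases) were lowest in that library and MT-ND3 (346 bases) was highest. Across all 13862 genes, which share their libraries and are not independent, Spearman's rho of length with the deviation in AEBP1 siRNA 1 was -0.37, and within the 62 nuclear members it was -0.14. The part of transcript length in the result was not tested.

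The proteins that build, feed or copy the chain were summarised from lists, and in none of them was a gene called. Over all genes, for comparison, 49.4% of estimates were above 0, 1.33% had an unadjusted p under 0.05 and 5.93% had groups that did not overlap. Of 19 nuclear genes of ATP synthase, which uses the proton gradient, 18 had estimates above 0, with a median of 0.10. ATP5MC1 and ATP5MG had the smallest p of these, at log2 fold changes of 0.25 and 0.26. Of 78 mitochondrial ribosomal proteins, which translate the mitochondrial genes, 73 were above 0 with a median of 0.11, and MRPL58 and MRPL9, with the smallest p, were at 0.28 and 0.17. Groups did not overlap for 1 of the 78 (1.28%) and for 0 of the 19 ATP synthase genes. As with the nuclear subunits, AEBP1 siRNA 1 was the highest library for 17 of the 19 ATP synthase genes and for 70 of the 78 ribosomal proteins. The median log2 deviations of the ATP synthase genes were 0.35, -0.18 and -0.040 in AEBP1 siRNA 1, 2 and 3, and those of the ribosomal proteins 0.32, -0.13 and -0.038.

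Assembly factors were less even. Of 15 for complex I, 12 were above 0 (median 0.11). NDUFAF3 was at 56.3 to 59.2 CPM in the scrambled libraries and at 60.7 to 79.1 CPM in the AEBP1 siRNA libraries, with no overlap (unadjusted p = 0.0707). NDUFAF7 did not overlap in the other direction, at 24.4 to 25 CPM against 22.0 to 23.7 CPM, and was singled out after its values were seen. NDUFAF8 was at 12.1 CPM in scrambled 1 and at 3.46 to 6.33 CPM in the others. Of 4 for complex II, 3 were above 0 (median 0.11), with SDHAF4 and SDHAF3 at 0.32 and 0.15, and of 6 for complex III, 4 were (median 0.081), with UQCC3 and UQCC1 at 0.25 and 0.097. Of 26 for complex IV, 18 were above 0 (median 0.049), and 1 (3.85% of the 26) had an unadjusted p under 0.05. This was COX20, a chaperone of the second core subunit of cytochrome c oxidase, at 18.7, 18.7 and 5.5 CPM in scrambled 1, 2 and 3 and at 7.48, 6.99 and 7.90 CPM in AEBP1 siRNA 1, 2 and 3. Scrambled 3 was the lowest of all 6, and the estimate was -0.94 on the log2 scale (SE 0.402, edgeR adjusted p = 0.991, unadjusted 0.0477). PET117, another of that list, was at 0.26. For PET117 and for UQCC3 the groups did not overlap either, both higher in the AEBP1 siRNA libraries. The shares without overlap were 13.3% for complex I, 0% for complex II, 16.7% for complex III and 3.85% for complex IV. Over all genes it was 5.93%.

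Of 12 genes for cytochrome c and ubiquinone synthesis, 8 were above 0 (median 0.071), and COQ4, with the smallest p, was at 0.22. COQ4 was the only 1 of the 12 (8.33%) whose groups did not overlap. CYCS, cytochrome c, was at 155, 155 and 190 CPM in scrambled 1, 2 and 3 and at 222, 181 and 157 CPM in AEBP1 siRNA 1, 2 and 3, with scrambled 3 among the high libraries as for SDHB. Of 17 genes that transcribe or maintain mitochondrial DNA and RNA, 10 were above 0 (median 0.0056), with SUPV3L1 and SSBP1 at 0.26 and 0.15. Among 9 nuclear regulators, 2 were above 0 (median -0.054). PPARGC1B, a coactivator of NRF1 and of estrogen-related receptors, was at 4.87, 7.44 and 6.21 CPM in the scrambled libraries and at 4.03, 4.52 and 4.94 CPM in the AEBP1 siRNA libraries (log2 fold change -0.46, SE 0.200, unadjusted p = 0.0508), and GABPB1, the partner of GABPA, had a log2 fold change of -0.15.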

How the data were processed

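RNA was sequenced from 6 LX-2 samples, 3 per group. The authors deposited raw counts and FPKM (fragments scaled to gene length and depth) per gene, per the file headers, with hg19 as the build per the submitters' processing notes. Not given in the sources used here: aligner, counting program, annotation and strand setting. The table held 24789 rows with values and 17 lines of text without values, which were left out; 27 symbols turned into dates were restored by gene ID. Each library had 34433510 to 49432960 counts, and floors cover counting error only. No 2 libraries were copies (chi-square per degree of freedom at least 7.78). The lowest value was between scrambled 3 and AEBP1 siRNA 2, while scrambled 3 was at 34.97 and 25.8 from scrambled 1 and 2. AEBP1 siRNA 3 was at 12.55 and 9.156 from scrambled 1 and 2, and at 83.97 and 22.63 from AEBP1 siRNA 1 and 2. Scrambled 3 was at 93.27 and 26.45 from AEBP1 siRNA 1 and 3. It was thus nearest to AEBP1 siRNA 2 but not near the other libraries of that label. AEBP1 siRNA 3 was nearer to scrambled 1 and 2 than to AEBP1 siRNA 1 and 2. Whether labels were exchanged was not tested.

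Counts were filtered with filterByExpr, scaled by TMM and tested in edgeR 4.0.16 (R 4.3.3) by quasi-likelihood; the model held the group alone, and p-values were adjusted over 16250 genes (Benjamini-Hochberg); limma 3.58.1 and DESeq2 1.42.0 served as alternatives. The SE is the log2 fold change over the square root of F. CPM values use the scaled library size, and log2 deviations add 0.5 counts. The test was checked on simulated counts. These were drawn without a shift of a whole library and with every library true to its label, unlike the data here. The members, lists and tests were chosen with earlier results of these data known. The rule named AEBP1, the mitochondrial genes, the 2 members per complex with the highest mean FPKM and the 2 with the smallest p, tissue forms, nearest relatives, and up to 2 genes per related list. Mitochondrial rRNA, tRNA and pseudogene copies were not analysed here. The values of 1 member are not reported here, though it stays in the counts and sums.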

Additional observations from a re-analysis of the deposited data

How the results depend on the processing

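The number of respiratory chain genes called was 0 in every setting run except with replicate 3 of both groups and AEBP1 siRNA 1 left out, where it was 1, and leaving out single libraries gave 0 to 0. Over all genes 1 was called; no filter gave 3, DESeq2 6, limma-voom 2, log2(FPKM + 0.1) 3 and an adjusted p under 0.01 gave 0, single libraries left out 0 to 2, and the fit lacking both replicate 3 libraries and AEBP1 siRNA 1 gave 249. With the replicate block 2 genes were called, 0 of them respiratory chain genes. Deviations of same-numbered libraries correlated at 0.067, -0.011 and -0.095, which gave no sign of pairing. They were taken from the mean of each labelled group, where AEBP1 siRNA 1 and the replicate 3 libraries stood apart. A pairing could thus be missed. Without single libraries the nuclear median ran from -0.029 to 0.24, the mitochondrial median from 0.062 to 0.11, and the difference in the log2 ratio of mitochondrial to nuclear sums from -0.12 to 0.090. With AEBP1 siRNA 1 and both replicate 3 libraries left out the 3 values were -0.15, -0.018 and 0.14.

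Without single libraries these estimates changed sign: ATP5MG -0.0045 to 0.40, COX4I1 -0.050 to 0.27, COX6A1 -0.027 to 0.27, COX6B1 -0.039 to 0.33, COX6B2 -0.10 to 0.46, COX7A2 -0.038 to 0.24, COX7A2L -0.36 to 0.0056, COX7B -0.095 to 0.30, COX8A -0.015 to 0.30, CYC1 -0.13 to 0.18, MT-ATP8 -0.087 to 0.093, MT-CO1 -0.032 to 0.061, MT-ND3 -0.0063 to 0.22, MT-ND4 -0.012 to 0.069, MT-ND4L -0.43 to 0.047, MT-ND5 -0.21 to 0.069, NDUFA4L2 -0.20 to 0.28, NDUFAB1 -0.019 to 0.18, NDUFAF8 -0.78 to 0.028, NDUFB9 -0.16 to 0.11, NDUFS5 -0.020 to 0.24, SDHA -0.17 to 0.089, SDHB -0.067 to 0.39, SDHD -0.079 to 0.058, UQCRC1 -0.15 to 0.12, UQCRH -0.0063 to 0.31 and UQCRQ -0.083 to 0.20. Without replicate 3 of both groups, UQCRQ was at -0.036, MT-CO1 -0.085, MT-ND4 -0.034, COX6B2 -0.0091, SDHAF4 -0.052 and CYC1 -0.21. Without these and AEBP1 siRNA 1, the values were NDUFA11 -0.13, NDUFS5 -0.088, NDUFB10 -0.021, SDHD -0.12, UQCRH -0.19, UQCRQ -0.35, UQCRB -0.026, COX6A1 -0.24, COX8A -0.25, COX6C -0.017, MT-CO1 -0.11, MT-CO2 -0.039, MT-ND3 -0.093, MT-ND4 -0.039, MT-CO3 -0.018, MT-ATP8 0.12, COX4I1 -0.18, COX6B1 -0.15, COX6B2 -0.10, COX7A2 -0.12, COX7B -0.30, NDUFA4L2 -0.34, NDUFAB1 -0.028, ATP5MC1 -0.14, SDHAF3 -0.051, SSBP1 -0.0046 and CYC1 -0.43. On log2(FPKM + 1) SDHC was at 0.026, COX6C -0.011, UQCRC1 0.0049 and NDUFB9 0.0042, and with a pseudocount of 0.1 they were at 0.029, -0.012, 0.0050 and 0.0043. Upper quartile scaling put UQCRC1 at 0.010 and NDUFB9 at 0.0073, and SDHD was at -0.0012 by limma-voom and -0.0011 with the replicate block. The cause was not tested for any of them. Of the values of single genes under alternatives, 1027 kept direction and call and 86 reversed. The remaining values were those of AEBP1, COX7A2L, COX20 and UQCRC1 in the fit with AEBP1 siRNA 2 alone. These log2 fold changes were -0.88, -0.73, -1.41 and -0.45. That fit leaves out the replicate 3 libraries, whose AEBP1 went against the labels, so the AEBP1 value follows from the choice of libraries and tests nothing.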
